A study of Mus musculus with 8 samples.

Results

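The STAT proteins are transcription factors that carry cytokine signals to DNA. A cytokine receptor activates a JAK kinase, the kinase phosphorylates a single tyrosine near the C-terminal end of a STAT, and the paired STATs enter the nucleus and bind their target genes. In T helper cells the members divide the work by cytokine. STAT3 answers IL-6, IL-23 and IL-21 and starts the Th17 program, the closely related STAT5A and STAT5B answer IL-2 and hold it back, STAT4 answers IL-12 in Th1 cells, STAT6 answers IL-4 in Th2 cells, and STAT2 carries type I interferon signals. The 6 STAT genes *Stat2*, *Stat3*, *Stat4*, *Stat5a*, *Stat5b* and *Stat6* were taken by their symbols from the 13704 genes listed in a pair of RNA-seq libraries of in vitro Th17 cells. All 6 were listed in both libraries and had at least 10 reads over the libraries together.

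Naive CD4+ T cells of C57BL/6 mice, either wild type (WT) or TRIM28fl/flxCD4cre (KO, in which Cre driven by the *Cd4* promoter removes *Trim28* in T cells), were polarized toward Th17 over 3 days. The medium held IL-6 at 20 ng/ml together with TGF-β at 0.5 ng/ml. RNA was taken after both cultures had met anti-CD3 once more. There was 1 library per genotype, and neither the number nor the age of the mice behind each library is stated for it, so no difference given here has a replicate check and none can be told apart from a difference between cultures. The 6 ChIP-seq samples of the series were not analysed here.

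The WT library held 6650066 uniquely assigned reads and the KO library 6185108. *Trim28* was down from 4485 WT reads to 180 KO reads. The 8 T helper markers, among them *Cd3e* and *Cd4*, summed to 5360 CPM (reads scaled to a library of 1000000) in WT and 4634 CPM in KO. The summed level of the 6 Th17 markers was 1671 CPM in WT and 528 CPM in KO. Markers of other cells were low, with summed levels of 12.5 and 7.11 CPM for 5 B-cell genes, 7.97 and 4.69 CPM for 3 CD8 T-cell genes, 3.91 and 3.07 CPM for 7 myeloid genes and 0.902 and 0.970 CPM for 3 NK-cell genes in WT and KO, in that order. The macrophage genes *Lyz2*, *Csf1r* and *Adgre1* had no reads in either library, nor did *Eomes* of CD8 T cells or *Ncr1* and *Klrb1c* of NK cells. The part of these marker levels in the differences between the libraries was not tested. In bulk RNA, fewer cells of a type and less RNA per cell cannot be told apart.

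The codons of the activating tyrosine show what the family shares and where it splits. They are printed from the longest protein-coding transcript of each gene in GENCODE M21, 5′ to 3′, with the tyrosine codon in capitals. The longest open reading frame within that transcript was used, which for *Stat3* encodes 722 residues. Longer frames in other transcripts of a gene were not sought. The tyrosine was found as the only one in the last part of each open reading frame that is followed by leucine or valine and then by lysine, proline or serine. It is residue 689 of STAT2, 705 of STAT3, 693 of STAT4, 694 of STAT5A, 699 of STAT5B and 641 of STAT6.
Stat2: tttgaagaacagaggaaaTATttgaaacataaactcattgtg
Stat3: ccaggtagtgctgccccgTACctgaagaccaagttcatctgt
Stat4: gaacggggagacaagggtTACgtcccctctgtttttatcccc
Stat5a: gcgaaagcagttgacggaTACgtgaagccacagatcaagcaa
Stat5b: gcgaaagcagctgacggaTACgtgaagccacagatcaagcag
Stat6: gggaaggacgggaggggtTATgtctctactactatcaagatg
The windows of *Stat5a* and *Stat5b* are nearly the same letters, while those of the other members differ widely around the tyrosine codon, which is TAT in *Stat2* and *Stat6* and TAC in the other 4. Over the open reading frames used, *Stat5a* and *Stat5b* were 90.7% identical in aligned bases, against 54.2% to 63.3% for the other 14 pairs of members. Of the stretches of 30 bases in the *Stat5a* transcript, 22.0% also occur in *Stat5b*, and 16.4% of those of *Stat5b* occur in *Stat5a*. No other pair of members shared a stretch of that length. Reads from these shared stretches fit both genes. The deposited values count uniquely assigned reads, and whether a read had to be unique in the genome or to 1 gene is not stated. In this respect alone, the counts of this pair are less certain than those of the other 4 members. Stretches shared with genes outside the family were not sought.

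The difference between the libraries was largest for *Stat4* and *Stat5b*, which were both lower in the KO library, while *Stat2*, *Stat3*, *Stat5a* and *Stat6* differed by less than 1.5-fold. Fold changes are given as log2 of KO over WT with 0.5 added to each count and scaled to the library totals. Exact 95% intervals were computed from the share of a gene's reads that came from the KO library, and they cover counting error only. A difference was counted at 2-fold among the 10881 genes whose reads over WT and KO summed to 10 or more. This is the fold limit of the study's methods, which also set a limit on the false discovery rate that was not applied in this count.

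*Stat4*, which transmits IL-12 signals and is known for driving *Ifng* in Th1 cells, lies on chromosome 1 of GRCm38 from 51987148 to 52107189. It was read 521 times in WT and 239 times in KO, which is 78.3 CPM (exact Poisson 95% interval from 71.8 to 85.4) and 38.6 CPM (33.9 to 43.9). The intervals of the libraries are far apart. The log2 fold change was -1.02, with an interval from -1.25 to -0.80, so the point value lay just past 2-fold and the interval spanned that limit. *Stat4* was the 1 member of 6 that was lower by at least 2-fold, and no member was higher by as much. Among all genes tested, 7.94% were lower and 3.75% higher by that amount. The log2 fold change of *Stat4* was below those of all but 7.72% of the tested genes. It was -0.99 with TMM scaling and -0.92 with a correction for GC content, both just short of 2-fold.

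*Stat5b*, 1 of the pair of IL-2-responsive STATs, lies on chromosome 11 from 100780731 to 100850724. The WT library gave it 137 reads and the KO library 67, which is 20.6 CPM (17.3 to 24.4) and 10.8 CPM (8.40 to 13.8). Its log2 fold change of -0.92 had an interval from -1.37 to -0.50, wider than that of *Stat4*, on fewer reads. At a limit of 1.5-fold *Stat4* and *Stat5b* were the 2 members that were lower, where 17.7% of all tested genes were, and no member was higher, where 10.8% of all tested genes were.

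*Stat5a*, the partner gene that starts 8626 bases away from *Stat5b* on the opposite strand, lies on the same chromosome from 100859351 to 100885169. Its reads numbered 297 in WT and 291 in KO, or 44.7 CPM (39.7 to 50.04) and 47.0 CPM (41.8 to 52.8). The levels overlapped, and the log2 fold change was 0.08 (interval from -0.16 to 0.31). The ratio of *Stat5a* to *Stat5b* reads, which does not depend on how the libraries are scaled, was 2.17 in WT and 4.34 in KO. The odds ratio was 2.00, with an exact interval from 1.42 to 2.84. It takes no account of transcript length. With the length correction described further on, the log2 fold change was 0.15 for *Stat5a* and -0.69 for *Stat5b*.

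*Stat3*, the STAT of IL-6, lies next to *Stat5a* on chromosome 11 from 100885098 to 100939540, with its 3′ end toward that of *Stat5a*. Its level was low, at 14.0 CPM (11.3 to 17.1) and 16.5 CPM (13.4 to 20.0). They rest on 93 and 102 reads, and the intervals overlapped. The log2 fold change of 0.24 had an interval from -0.18 to 0.66, which includes no change. With the correction for transcript length described further on it was 0.54 (interval from 0.12 to 0.96), which excludes no change, so whether *Stat3* differed beyond counting error depended on that correction. In the GENCODE annotation the last 72 bases of the *Stat3* and *Stat5a* genes overlap on opposite strands, and whether the counting used strand is not stated. The ratio of *Stat3* reads to the summed *Stat5a* and *Stat5b* reads, 0.214 in WT and 0.285 in KO, gave an odds ratio of 1.33 with an interval from 0.96 to 1.84, which includes no difference.

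*Stat6*, the STAT of IL-4, lies on chromosome 10 from 127642986 to 127660957 and had the most reads of the family. Its 2323 WT reads and 2010 KO reads correspond to 349 CPM (335 to 364) and 325 CPM (311 to 339). The log2 fold change was -0.10 with an interval from -0.19 to -0.02, the narrowest of the family, which excludes no change. With TMM scaling (-0.08, interval up to 0.0075) and with the correction for length (-0.05, up to 0.04) the interval included it. The gene overlaps *Nab2* by 40 bases on the opposite strand, which had 150 WT and 203 KO reads. *Stat2*, the partner of IRF9 in the interferon-induced ISGF3 complex, lies on the same chromosome from 128270559 to 128292849. Its 577 WT reads and 595 KO reads correspond to 86.8 CPM (79.8 to 94.1) and 96.2 CPM (88.6 to 104). Its log2 fold change of 0.15 had an interval from -0.02 to 0.32, and the interval excluded no change with TMM scaling (0.17, from 0.0062) and with the correction for length (0.28, from 0.11). The counting interval excluded no change for 3 of the 6 members, *Stat4*, *Stat5b* and *Stat6*, and for 48.5% of all genes tested.

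**Figure D1:**
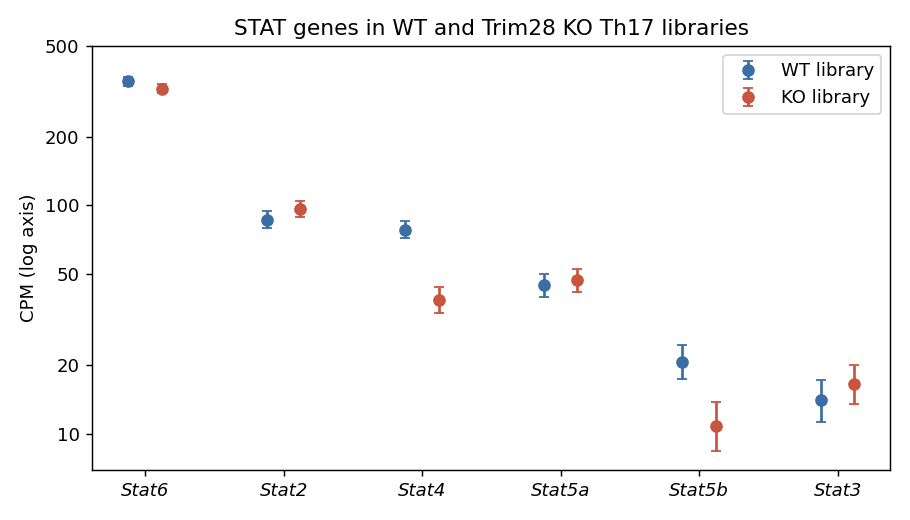
Reads of each STAT gene in CPM (log axis) in the WT and KO libraries, with exact Poisson 95% intervals as bars; each point is 1 library. *Stat4* (78.3 against 38.6 CPM) and *Stat5b* (20.6 against 10.8 CPM) are apart, while the points of the other 4 genes lie close together.

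**Figure D2:**
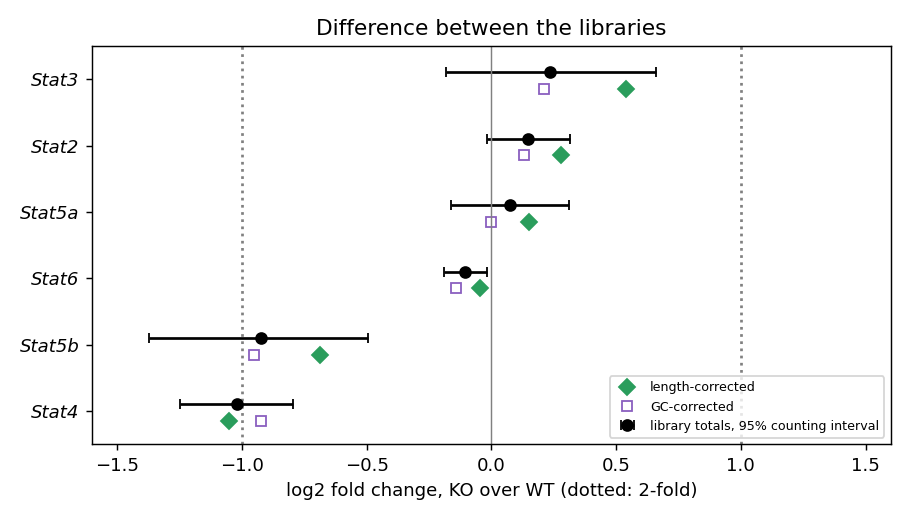
Log2 fold change of KO over WT for each STAT gene, with the exact 95% counting interval as bars, and the same value after correction for transcript length or GC content; dotted lines mark 2-fold. *Stat4* sits at the 2-fold line under each of the 3 settings, from -1.05 to -0.92, and *Stat5b* moves from -0.92 to -0.69 with the length correction.

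The fold changes of all genes depended on transcript length in these libraries, which bears on how each member is read. Among the 10792 tested genes with an annotated length, the median log2 fold change went from 0.29 in the tenth of genes with the shortest transcripts to -0.44 in the tenth with the longest. *Stat4*, with a longest transcript of 2982 bases, was in the fifth of these 10 groups, where the median was 0.02 and 6.04% of genes were lower by at least 2-fold. *Stat5b* with 5213 bases and *Stat3* with 6042 bases were both in the ninth, where the median was -0.29 and 13.1% of genes were lower by at least 2-fold. With a loess curve against length taken off, *Stat4* was at -1.05, *Stat5b* at -0.69, *Stat3* at 0.54, *Stat2* at 0.28, *Stat5a* at 0.15 and *Stat6* at -0.05. *Stat4* was thus as low as before the correction, *Stat5b* was less low, and *Stat3* stood above 88.4% of the corrected genes. *Stat4* remained the 1 member past 2-fold, where 6.77% of corrected genes were lower and 3.57% higher. The median over the 6 members was -0.01 before and 0.05 after the correction, against -0.02 and 0.00 over all genes tested.

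**Figure D3:**
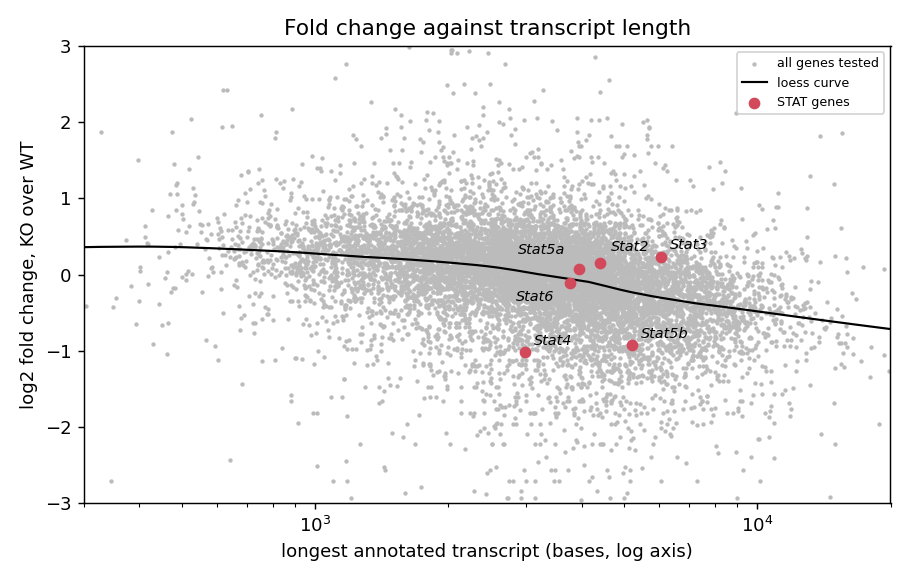
Log2 fold change of KO over WT against the length of the longest annotated transcript (log axis) for all genes tested, with the loess curve and the 6 STAT genes marked; 112 genes lie outside the plotted range. *Stat4* lies about 1 unit below the curve, *Stat5b* lies 0.69 below it, and *Stat3* lies 0.54 above it.

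As a share of the family's own reads, which needs no scaling between libraries, *Stat4* had a smaller part in the KO library. The 6 genes summed to 3948 WT reads and 3304 KO reads, for which the log2 ratio of KO to WT was -0.15 (-0.22 to -0.09). *Stat4* made up 13.2% of the family's reads in the WT library (exact binomial 95% interval from 12.2% to 14.3%) and 7.23% in the KO library (6.37% to 8.17%). *Stat5b* made up 3.47% (2.92% to 4.09%) and 2.03% (1.57% to 2.57%). *Stat6* held 58.8% of the reads in WT and 60.8% in KO, and its intervals overlapped. The share of *Stat2* was 14.6% (13.5% to 15.8%) in WT and 18.01% (16.7% to 19.4%) in KO, so that the shares of *Stat4* and *Stat2*, close to each other in the WT library, were far apart in the KO library. Against the summed reads of the other 5 members, the odds ratio of *Stat4* between the libraries was 0.51 (interval from 0.43 to 0.60). Against *Stat5b* it was 0.94 (0.67 to 1.33), so the genes with the largest differences were lower by a similar factor within this error. The ratio takes no account of transcript length, and with the length correction *Stat4* was at -1.05 and *Stat5b* at -0.69.

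**Figure D4:**
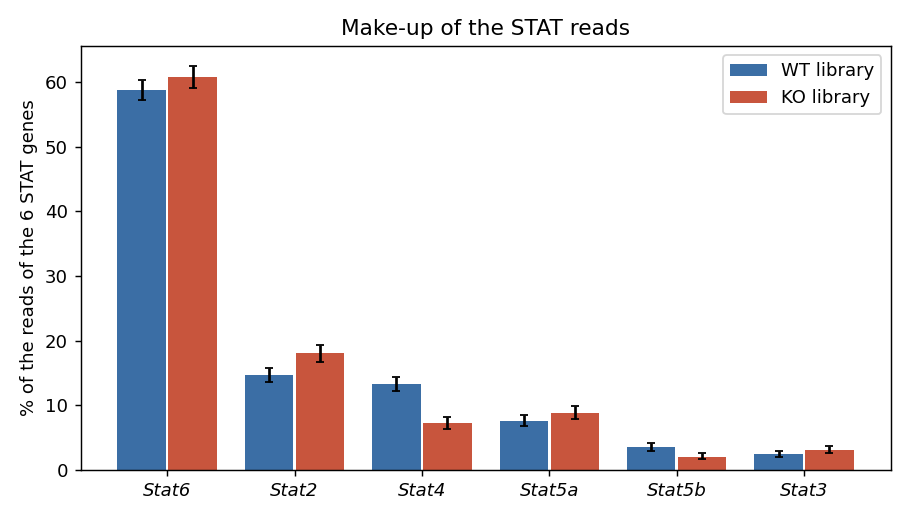
Percent of the reads of the 6 STAT genes that each gene took in the WT and KO libraries, with exact binomial 95% intervals as bars. *Stat6* takes 58.8% and 60.8%, and the share of *Stat4* is 13.2% in WT and 7.23% in KO.

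Levels of different genes were compared per length, as RPKM, the CPM value divided by the length of the longest transcript in kilobases, with exact Poisson 95% intervals. In the WT library the order was *Stat6* at 92.5 RPKM, *Stat4* at 26.3, *Stat2* at 19.7, *Stat5a* at 11.3, *Stat5b* at 3.95 and *Stat3* at 2.31 RPKM, and no interval overlapped that of the next gene. In the KO library the order was *Stat6* at 86.1 RPKM, *Stat2* at 21.9, *Stat4* at 13.0, *Stat5a* at 11.9, *Stat3* at 2.73 and *Stat5b* at 2.08 RPKM. There the intervals of *Stat4* and *Stat5a* overlapped, as did those of *Stat3* and *Stat5b*. *Stat4* thus stood above *Stat2* in the WT library and below it in the KO library. With the median length of the coding transcripts in place of the longest, *Stat5b* and *Stat3* could not be told apart in the WT library.

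The low place of *Stat3*, the STAT of the cytokine used to make these cells, is set beside the number of transcripts annotated for each gene. RefSeq lists 1 curated transcript for *Stat2* and *Stat6*, 2 for *Stat4* and 3 each for *Stat3*, *Stat5a* and *Stat5b*. Across the tested genes the median level in the WT library was 12.7 RPKM for the 5810 genes with 1 curated transcript, 6.13 for those with 2, 4.70 for those with 3 and 3.87 for those with 4 or more, and the medians of the KO library were in the same order. For *Stat3*, 0 of the 4520 exonic bases of its curated transcripts lay in only 1 of them, against 310 of 3968 bases for *Stat5a*, 3218 of 7954 for *Stat5b* and 650 of 3151 for *Stat4*. The share of such bases did not follow the level in the same way. Among tested genes with 2 or more curated transcripts, the median in the WT library was 6.06 RPKM for those with under 1% of such bases, the class of *Stat3*, against 4.40 RPKM for 1% to 10%, 5.24 RPKM for 10% to 50% and 6.70 RPKM for 50% or more. The part of the transcript number in the order of these levels was not tested. The comparison of a member between the libraries was made within 1 gene and the same annotation. The median log2 fold change of the tested genes also fell slightly with transcript number. It was 0.02 for genes with 1 curated transcript, -0.04 with 2, -0.06 with 3 and -0.08 with 4 or more. The part of transcript number in the fold changes of the members was not tested.

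**Figure D5:**
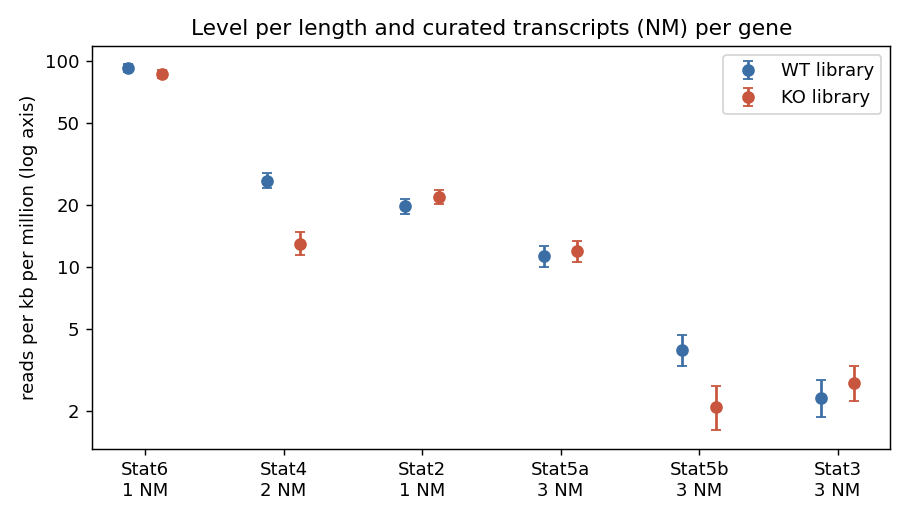
Level of each STAT gene per kilobase of its longest transcript (RPKM, log axis) in the WT and KO libraries, with exact Poisson 95% intervals; below each name is the number of curated RefSeq transcripts (NM). *Stat6* stands at 92.5 and 86.1 RPKM, and the 3 genes with 3 curated transcripts lie at the low end, between 2.08 and 11.9 RPKM.

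The promoters of *Stat4* and *Stat2* are shown because these genes changed places in the order and because only their promoters, among those of the 6 genes, held a core of the interferon-stimulated response element, the site of ISGF3. Sequences run from 250 bases before to 50 bases after a start in the RefSeq table of GRCm38.p6 and are on the + strand. Each was searched on both strands for GAAANNGAAA (the response element core), TTCNNNGAA (the site bound by most STATs) and TTCNNNNGAA (the spacing that STAT6 favours), and matches are in capitals. All 6 members had entries in the table.
Stat4, chr1:51986898-51987197: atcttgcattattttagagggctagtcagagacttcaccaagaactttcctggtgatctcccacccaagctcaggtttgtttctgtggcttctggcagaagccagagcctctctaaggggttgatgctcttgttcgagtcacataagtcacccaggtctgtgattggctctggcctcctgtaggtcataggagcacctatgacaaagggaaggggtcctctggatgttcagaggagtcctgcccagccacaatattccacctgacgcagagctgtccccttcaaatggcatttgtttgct
Stat4, chr1:52007990-52008289: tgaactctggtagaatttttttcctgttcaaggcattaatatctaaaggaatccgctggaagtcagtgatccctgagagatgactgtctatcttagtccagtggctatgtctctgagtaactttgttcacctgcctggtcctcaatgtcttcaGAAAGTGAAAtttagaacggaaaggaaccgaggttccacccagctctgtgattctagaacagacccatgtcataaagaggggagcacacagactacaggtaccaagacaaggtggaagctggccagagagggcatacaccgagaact
Stat2, chr10:128270248-128270547: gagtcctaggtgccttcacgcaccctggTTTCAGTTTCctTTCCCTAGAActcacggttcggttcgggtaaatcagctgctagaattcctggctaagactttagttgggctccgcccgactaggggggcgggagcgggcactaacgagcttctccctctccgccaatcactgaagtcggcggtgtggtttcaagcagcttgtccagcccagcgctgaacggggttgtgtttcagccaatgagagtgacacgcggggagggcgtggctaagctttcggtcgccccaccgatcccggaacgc
The core in *Stat2* begins 222 bases before its start and that in the second *Stat4* promoter 97 bases before. A match to TTCNNNNGAA follows in *Stat2*, 210 bases before the start and not overlapping the core. Of the 32851 promoters in the table, 3.44% held the response element core, 8.30% TTCNNNGAA and 6.95% TTCNNNNGAA. No promoter of a member held TTCNNNGAA within this window. CpG pairs numbered 2 and 4 in the *Stat4* promoters and 22 in that of *Stat2*, and the 2 promoters of *Stat5b*, the other gene with a lower level in the KO library, held 7 and 50. A match to a motif is a description of the letters and not a bound site.

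The genes that surround the STATs in their pathway were described by lists written from general knowledge, with 7.94% of all tested genes lower and 3.75% higher by at least 2-fold as background. None of the 4 JAK kinases, which phosphorylate the STATs, differed by 2-fold. *Jak1* had 3221 and 2506 reads in the WT and KO libraries (log2 fold change -0.26), *Jak2* 81 and 51 (-0.56), *Jak3* 418 and 443 (0.19) and *Tyk2* 14 and 16 (0.29). After the correction for length they were at -0.06, -0.34, 0.27 and 0.48, in that order. Of 18 tested receptor genes whose cytokines signal through STATs, 1 was lower by at least 2-fold and none was higher. This was *Il27ra*, the receptor of IL-27, with 1857 and 765 reads (-1.17). *Il12rb2*, the receptor chain that activates STAT4, had 1005 and 513 reads (-0.86). The receptors that activate STAT3 lay on both sides, with *Il21r* at 1713 and 2398 reads (0.59), *Il23r* at 195 and 107 (-0.76), *Il6ra* at 826 and 489 (-0.65) and *Il6st*, the shared signalling chain of the IL-6 family, at 533 and 391 (-0.34). The longest transcripts of *Il6ra* and *Il6st* are 8639 and 8678 bases, and with the correction for length these genes were at -0.22 and 0.09. *Il21r* was then at 0.49 and *Il23r* at -0.86. Of 17 tested inhibitors of the pathway, *Ptprc* was lower (35 and 13 reads) and *Usp18* higher by at least 2-fold, and *Socs3*, the feedback inhibitor of IL-6 signals, had 1866 and 1650 reads (-0.07).

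Genes linked to each STAT were set beside the member itself. Of 20 tested genes linked to STAT3 in Th17 cells, 7 were lower by at least 2-fold and none was higher, with a median log2 fold change of -0.70 against -0.02 over all genes and a value of 0.24 for *Stat3*. Among those with at least 50 reads in 1 library, *Il17f* (-3.08), *Il17a* (-2.44) and *Rora* (-2.40) had the lowest values, and *Batf* (0.76), *Bcl3* (0.63) and *Bcl6* (0.53) the highest. *Il10* had 26 and 0 reads. The 1 gene of this list without reads in either library was *Myc*. Whether its transcript was absent or its reads were lost in the counting was not tested. Of 13 tested genes linked to STAT5, 0 differed by 2-fold in either direction, and their median was -0.27. *Cish*, a classic STAT5 target, had 3363 and 2587 reads (-0.27), *Il2ra* 12320 and 8925 (-0.36) and *Bcl2* 1037 and 684 (-0.50). With the correction for length *Cish* was at -0.10, *Il2ra* at -0.23 and *Bcl2* at -0.12, and the median of the list was -0.23. *Ccnd3* had 192 and 219 reads (0.29, interval from 0.0082 to 0.58), *Gzmb* 32 and 37 (0.31, from -0.41 to 1.04) and *Il2rb* 7108 and 6982 (0.08). *Foxp3*, the 1 gene of this list with too few reads to be tested, had 1 and 8 reads.

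Of 9 tested genes linked to STAT4, 3 were lower by at least 2-fold, *Furin* (126 and 22 reads, -2.39), *Hlx* (17 and 4) and *Irf1* (8 and 2, with an interval from -5.17 to 0.43 that includes no change), and the median of the list was -0.29. *Gadd45g* had 155 and 288 reads (0.996), just short of 2-fold, and *Ifng* had no reads in either library. As for *Myc*, whether the *Ifng* transcript was absent or its reads were lost in the counting was not tested. Of 6 tested genes linked to STAT6, 1 was lower by at least 2-fold, *Il24* with 17 and 4 reads, and *Gata3* had 75 and 100 reads (0.52). Of 14 tested genes linked to STAT2 and ISGF3, 1 was lower, *Irf9* with 18 and 8 reads, and 3 were higher by at least 2-fold. These were *Usp18*, which binds STAT2 and dampens interferon signals, with 8 WT and 111 KO reads (log2 3.82, from 2.87 to 5.15), *Ifit1* with 4 and 16 reads (1.98, from 0.47 to 4.14) and *Isg15* with 7 and 16 reads (1.24, from -0.06 to 2.82). The intervals of *Isg15* and of *Irf9* (-1.02, from -2.48 to 0.21) include no change, and after the correction for length both were short of 2-fold, at 0.92 and -0.95, which left 0 genes lower and 2 higher. The other members of this list with at least 50 reads differed by less than 1.5-fold. The lowest of them was *Dtx3l* with 1153 and 732 reads (-0.55, from -0.69 to -0.42), at -0.31 after the correction for length. The highest was *Zbp1* with 237 and 299 reads (0.44, from 0.19 to 0.69). *Parp9* (506 and 447) and *Ddx58* (207 and 186) lay between them. No test was made on any of these lists.

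The coactivators that STATs recruit were lower in the KO library before the correction for length, with *Ep300* (the gene of p300) at -0.83, *Ncoa1* at -0.75 and *Crebbp* at -0.60. Their longest transcripts are 9566, 7329 and 10820 bases, and after the correction they were at -0.36, -0.37 and -0.09. Of 9 tested partners, only *Irf9* was lower by at least 2-fold, with 18 and 8 reads, a call that was lost with the correction (-0.95), and the median went from -0.60 to -0.09 with it.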

How the data were processed

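RNA-seq of Th17 cells was compared between 1 WT and 1 KO library. The authors deposited whole-number counts, per gene symbol, of reads assigned uniquely, 1 file per library, with genes without reads left out. Per the study's methods, reads were mapped to mm10 with SOAP2, whereas the submitters' processing notes name bcl2fastq, Bowtie, HTSeq and SICER 1.1 with no role. The annotation, the use of strand and how reads fitting more than 1 gene were treated are not given in the sources used here.

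A gene missing from 1 file was given 0 reads. Counts were scaled to the library totals, 0.5 was added, and a gene needed 10 reads over WT and KO together to be kept. Intervals (95%) were exact, Clopper-Pearson for fold changes and shares and Poisson for levels, and cover counting error only, since reads were not marked by molecule. A count of 3 reads, the limit that 0 reads allow, was 0.451 CPM in WT and 0.485 CPM in KO. No p-value was computed across samples. Lengths and positions came from GENCODE M21 (GRCm38), matched by symbol for 12976 genes and by a unique older symbol for 598, with 130 unmatched. Curated transcripts and promoters came from RefSeq (GRCm38.p6). Tools were Python 3.11.15, SciPy 1.17.1, statsmodels 0.14.6 (loess, span 0.3), and R 4.3.3 with edgeR 4.0.16 and DESeq2 1.42.0 for scaling factors only. The steps were run on simulated counts that held counting error only, with single genes changed by more than 2-fold. That simulation cannot speak to differences between cultures or to changes at the 2-fold limit.

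The members and gene lists were chosen with earlier results of these data known. Outside the members and the JAK kinases, up to 3 genes with the highest and 3 with the lowest fold change among those with at least 50 reads in the higher library were named per list. Other genes named, the motifs, and the ratios other than *Stat5a* to *Stat5b* were chosen after values were seen. Alternatives were TMM, DESeq2 and upper-quartile scaling, 5 added in place of 0.5, other read minimums, length and GC corrections, a limit of 1.5-fold, a limit of 2-fold with an exact test of the reads, leaving out sex chromosomes, and other gene lengths.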

Additional observations from a re-analysis of the deposited data

How the results depend on the processing

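Of the 11 alternatives, 7 could move a member's log2 fold change (the 2 read minimums and the other call limits could not). They gave 42 values for the 6 members, all within the counting interval of the value reported, but 5 of the intervals moved to the other side of no change (*Stat2* and *Stat6* with TMM and with the length correction, *Stat3* with the length correction). 1 of the values changed sign (*Stat5a* at -0.0023 with the GC correction, against 0.08). *Stat4* ranged from -1.05 to -0.92, *Stat5b* from -0.95 to -0.69, *Stat3* from 0.21 to 0.54, *Stat2* from 0.13 to 0.28 and *Stat6* from -0.14 to -0.05. Because *Stat4* lies at the limit, the number of members lower by at least 2-fold was 0 with TMM scaling and 0 with the GC correction, against 1 as reported, and 2 at a limit of 1.5-fold. Of all tested genes, 7.94% were lower and 3.75% higher by 2-fold as reported. These shares were 5.06% and 2.41% with 5 added to each count, 14.7% and 8.41% with at least 1 read, 4.30% and 2.06% with at least 10 reads in each library, and 17.7% and 10.8% at 1.5-fold. The median of the STAT4-linked genes was 0.25 in place of -0.29 with at least 10 reads in each library, where *Hlx* and *Irf1* drop out, and that of the STAT partners was -0.14. With the union of exons as length, *Stat5b* (1.96 RPKM) stood above *Stat3* (1.73 RPKM) in the KO library, with overlapping intervals. With shares taken per kilobase, *Stat4* held 16.8% of the family in WT and 9.42% in KO. No paired analysis was possible because each genotype had 1 library, and no replicate could be left out. Depth limits *Stat3*, *Stat5b* and the list genes with few reads, whose intervals are wide.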
